A study of Homo sapiens with 15 samples.

Results

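The BCL2 family decides whether the mitochondrial outer membrane stays intact, and 10 of its genes are described here in IMR90, a cell line of fibroblasts from fetal human lung. The genes were taken as a named list from the rows of the deposited count table. No cut on their values was used, but earlier results of these data were known when the list was chosen. It holds the pro-survival genes BCL2, BCL2L1, BCL2L2, MCL1 and BCL2A1, the effectors BAX and BAK1, and the BH3-only genes BBC3, PMAIP1 and BCL2L11. All 10 were found among the 57736 genes of the table, and all 10 were among the 15994 genes with enough counts to be tested. The study compared growing and senescent cells, and senescent cells with and without inhibition of thioredoxin reductase 1 (TXNRD1), an enzyme that keeps thioredoxin reduced. It has 15 libraries of total RNA, 3 for each of 5 groups: control cells that were growing, control cells that were senescent, and senescent cells with shTXNRD1 (a short hairpin RNA against TXNRD1), with DMSO (the solvent) or with Tri-1, a small molecule that inhibits the TXNRD1 enzyme. No label says how senescence was induced, what the controls carried, how many hairpins were used, the dose or time of Tri-1, or whether the 3 libraries of a group came from separate cultures. The p-values therefore measure only the spread between these libraries, which may be technical.

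Pro-survival proteins of the family bind and restrain BAX and BAK1, which otherwise form pores in the outer membrane and release cytochrome c. BH3-only proteins are the sensors of damage: they occupy the groove of the pro-survival proteins, and some of them also activate BAX and BAK1 directly. Senescent cells are known for resisting apoptosis, and drugs that block BCL2, BCL-xL (the product of BCL2L1) and BCL-w (the product of BCL2L2) are used as senolytic agents, that is, to kill senescent cells selectively. Much of the family's control lies in protein binding and protein turnover, which RNA levels do not show.

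The promoters of 8 of the 10 genes were found in a RefSeq table (assembly GRCh38.p14), with 9 entries in all because BCL2L1 has 2. Promoters of MCL1 and BCL2L2 are not used here. The 250 bases before the start are printed for BCL2A1, the gene with the largest fold between growing and senescent cells, and for BCL2L11 and PMAIP1, the BH3-only genes that rose with the hairpin. Capitals mark matches to a few motifs that were chosen after these windows had been seen, searched on both strands: GTAAACA (FOXO), TGANTCA (AP-1), TGACG (the core of the cAMP response element), CACGTG (the E box) and the NF-kB consensus by its name. BCL2A1 lies on the minus strand, in the window chr15:79971197-79971446. BCL2L11 lies on the plus strand, in the window chr2:111120664-111120913. PMAIP1 lies on the plus strand, in the window chr18:59899746-59899995.
BCL2A1: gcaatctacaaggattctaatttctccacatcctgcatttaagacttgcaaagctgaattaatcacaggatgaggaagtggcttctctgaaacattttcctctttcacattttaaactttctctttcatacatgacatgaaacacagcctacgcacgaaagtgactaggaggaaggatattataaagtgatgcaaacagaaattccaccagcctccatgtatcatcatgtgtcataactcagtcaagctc
BCL2L11: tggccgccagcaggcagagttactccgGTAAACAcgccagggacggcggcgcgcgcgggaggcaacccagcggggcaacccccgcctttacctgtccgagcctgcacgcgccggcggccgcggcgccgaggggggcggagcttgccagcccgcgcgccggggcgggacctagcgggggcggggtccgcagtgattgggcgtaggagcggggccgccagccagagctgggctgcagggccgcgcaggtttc
PMAIP1: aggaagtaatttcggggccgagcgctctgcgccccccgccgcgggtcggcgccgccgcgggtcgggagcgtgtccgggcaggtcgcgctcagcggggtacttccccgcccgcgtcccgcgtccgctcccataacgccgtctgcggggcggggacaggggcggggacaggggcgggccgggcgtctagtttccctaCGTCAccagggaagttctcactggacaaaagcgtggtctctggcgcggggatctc
The 3 windows differ in base composition. That of BCL2A1 holds 38.8% G and C, against 76.8% for BCL2L11, 72.8% for PMAIP1 and a median of 58% over 35116 promoters of the table. None of the motifs was found in the BCL2A1 window. The BCL2L11 window holds GTAAACA between 223 and 217 bases before the start, a motif found in 2.98% of promoters. The PMAIP1 window holds CGTCA, the reverse complement of TGACG, between 55 and 51 bases before the start, and 21.2% of promoters hold that motif on either strand. Among the other windows that of BAX holds CACGTG at 4 places, against 6.34% of promoters with at least 1, and one of these overlaps a TGACG. The BBC3 window holds 1 match to CACGTG and 1 to TGANTCA, the latter found in 6.57% of promoters. The BCL2 window holds CGTCA between 225 and 221 bases before the start. A BCL2L1 window holds TGACG between 201 and 197 bases before the start. The matches are a description of letters and not binding sites.

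Library totals ran from 18033076 to 28909046 counts, with a median of 21156213. TXNRD1 RNA averaged 515 CPM (the gene's counts scaled to a common library size with TMM, the edgeR method that allows for composition) in the senescent control and 22.6 CPM with shTXNRD1, a log2 fold change of -4.51 ± 0.08 (SE), so the libraries matched the hairpin label. With Tri-1 it differed from DMSO by 0.08 ± 0.07 (edgeR quasi-likelihood test, adjusted p = 0.483). All 8 fibroblast markers were detected, with summed levels of 11167 to 21313 CPM per library. Of these 8 markers 5 were called lower and 2 higher with the hairpin, beside 50.7% of all genes called. Their summed levels were 11616 to 15186 CPM with the hairpin, against 16180 to 18848 CPM in the senescent control. With Tri-1 5 were lower and 1 higher, beside 19.9% of all genes (11167 to 11922 CPM, against 14611 to 17204 CPM with DMSO). In the senescent control 4 were lower and 1 higher than in growing cells, beside 56.9% of all genes. The part of these markers in the changes of the 10 genes was not tested. Libraries also differed in the mean GC content of their counted transcripts, from 46.96% (shTXNRD1 replicate 3) to 49.08% (Tri-1 replicate 2). Growing replicate 1 (47.4%), shTXNRD1 replicate 3 and DMSO replicate 1 (47.9%) were the lowest of their groups, and all Tri-1 libraries (48.8% to 49.1%) lay above all DMSO libraries (47.9% to 48.7%). These differences bear on several of the 10 genes and are taken up beside them. TXNRD1 RNA was called higher with Tri-1 than with DMSO in fits that allow for GC. It was at 0.11 after a GC correction (edgeR adjusted p = 0.00220) and at 0.17 with library GC as a term (1.61e-06). Without the 3 low-GC libraries just named it was at 0.12 (0.0461). These are not the 3 lowest of all libraries: shTXNRD1 replicate 2 (47.8%) lay below DMSO replicate 1 and was kept.

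The first comparison asked how the family's RNA differs between senescent and growing cells. In senescent control cells the make-up of the pro-survival genes changed: BCL2 fell 8.14-fold, while BCL2L1 rose 2.28-fold and MCL1 1.90-fold, BCL2L2 rose by 0.58 on the log2 scale, and BCL2A1, almost without counts in growing cells, was well detected. Of the pro-apoptotic genes BBC3 rose 2.58-fold, and the other 4 did not pass the test. In total, 5 of the 10 genes were called higher and 1 lower by the edgeR quasi-likelihood test at a Benjamini-Hochberg adjusted p under 0.05. Senescence moved much of the transcriptome, with 56.9% of all tested genes called, 27.4% higher and 29.5% lower, so 6 of 10 is near the background. The libraries of the compared groups did not overlap for 7 of the 10 genes, against 63.6% of all genes. The median log2 fold change of the 10 genes was 0.61, against 0.03 over all genes tested. Fewer cells of a kind and less RNA per cell cannot be told apart in such bulk libraries.

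BCL2, the founding pro-survival gene, stood at 10.2, 10.4 and 9.26 CPM in the 3 growing libraries. The senescent control libraries held 1.62, 0.840 and 1.15 CPM. The groups were far apart, and the log2 fold change was -3.02 ± 0.24 (SE, n = 3 against 3, edgeR adjusted p = 8.04e-08). In the other senescent groups the level stayed in the same low range: 0.930 ± 0.289 CPM (SD, n = 3) with shTXNRD1, 1.09 ± 0.333 with DMSO and 0.875 ± 0.0558 with Tri-1. All 4 senescent groups overlapped each other, and no comparison among them passed the test for BCL2 (edgeR adjusted p from 0.278 to 0.949). The order of the 4 senescent means is therefore within their spread.

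BCL2A1, an NF-kB target gene known from blood cells, had 1 count in growing replicate 1 and 0 in the other two growing libraries. The senescent control libraries held 365, 276 and 370 counts, or 14.8, 13.6 and 18.5 CPM. The ratio of counts, corrected for library size, was 1103, with an exact 95% interval of 198 to 43623 that covers counting error only. The fitted log2 fold change was 9.63 ± 0.32 (edgeR adjusted p = 5.34e-12), a size that depends on how the fit treats counts near 0. Of 6 leukocyte markers, CD3E was at 0 in all 15 libraries, PTPRC stayed at or under 0.247 CPM, and only CD68 averaged above 1 CPM in any group. CD68, which cells with many lysosomes also express, went from 20.9 ± 5.12 CPM in growing to 75.2 ± 4.09 CPM in senescent control cells. Summed over the 6 markers the level was 15.6 to 26.0 CPM in growing and 72.2 to 80.6 CPM in senescent control libraries.

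MCL1, a short-lived pro-survival protein whose RNA was the most abundant of the 10, stood at 403, 352 and 338 CPM in growing cells. In the senescent control it stood at 698, 679.6 and 705 CPM, a narrow range above all growing libraries (log2 fold change 0.93 ± 0.09, edgeR adjusted p = 4.65e-07). BCL2L1 stood at 48.8, 63.5 and 65.5 CPM in growing and at 139, 137 and 129.5 CPM in senescent control cells (1.19 ± 0.12, edgeR adjusted p = 1.34e-06). These groups did not overlap either, although the growing libraries differed among themselves. BCL2L2 moved least of the 3, from 58.2 ± 0.396 CPM (SD, n = 3) to 87.1 ± 4.88 CPM (0.58 ± 0.06, edgeR adjusted p = 6.73e-07). For BCL2L2, 19.4% of the annotated exon bases are shared with BCL2L2-PABPN1, a readthrough transcript on the same strand, which itself went from 0.496 to 8.37 CPM. How the authors' counting split reads between these genes is not given in the sources used here. Gene counts also do not separate isoforms, such as the long pro-survival and short pro-apoptotic products of BCL2L1.

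**Figure D1:**
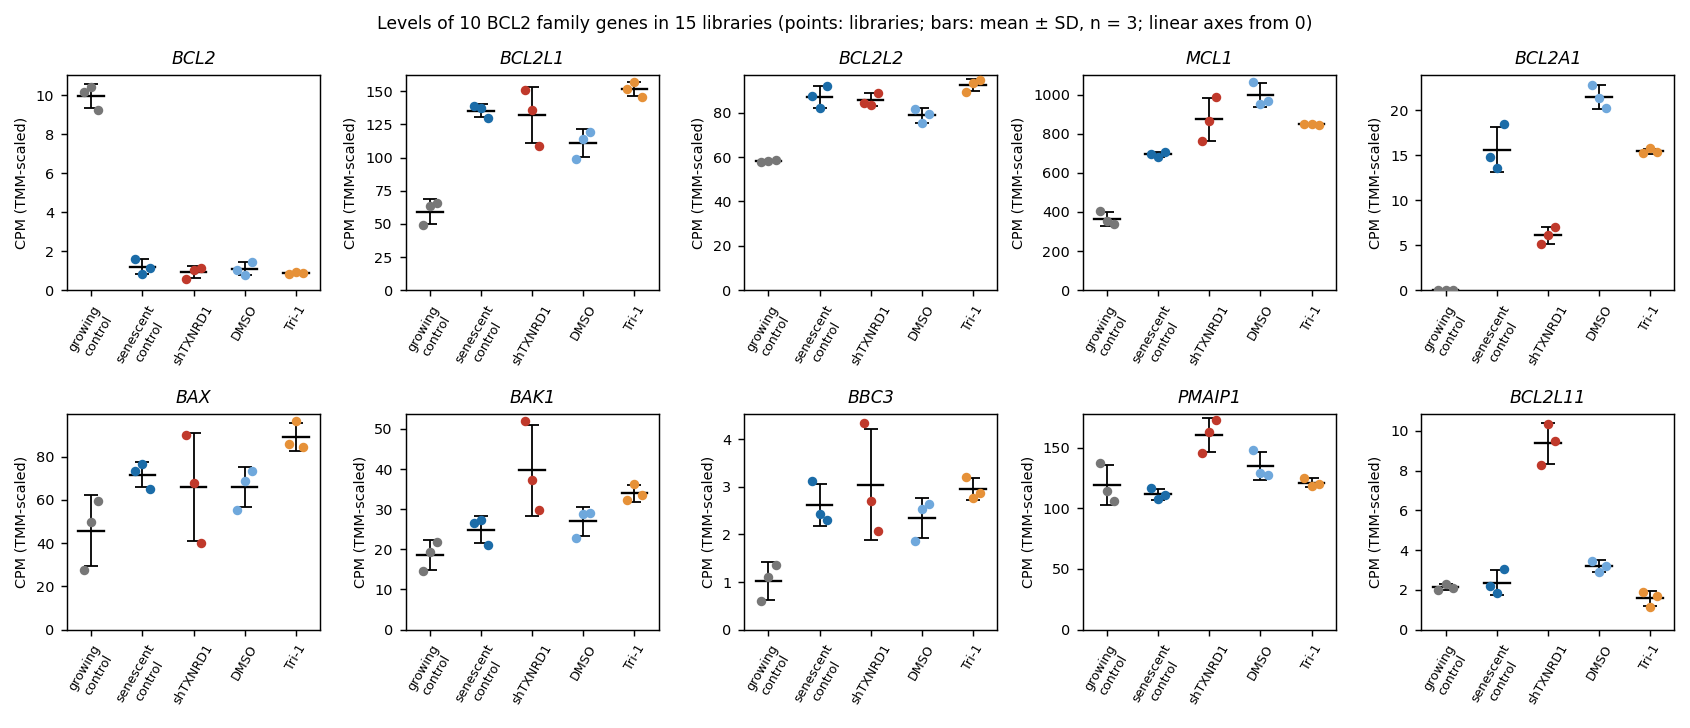
TMM-scaled CPM (vertical axes, linear, from 0) of each of the 10 genes in the 5 groups. Points are single libraries, and the black lines and bars are the mean ± SD of 3. BCL2 is at 9.26 to 10.4 CPM in growing cells and at or under 1.62 CPM in all senescent libraries, and BCL2L11 stands above all other groups with shTXNRD1 (8.30 to 10.3 CPM).

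Among the pro-apoptotic genes BBC3, which encodes PUMA, stood at 0.595, 1.11 and 1.36 CPM in growing cells. In the senescent control it stood at 3.12, 2.42 and 2.30 CPM, above all growing libraries (1.37 ± 0.30, edgeR adjusted p = 0.00148). BBC3 was at 0.84 after the GC correction and remained called (adjusted p = 0.000566). BAX, the cytosolic effector, stood at 27.7, 49.9 and 59.6 CPM in growing cells and at 73.2, 76.3 and 65.2 CPM in the senescent control. Its groups did not overlap, and it did not pass the test (0.65 ± 0.28, edgeR adjusted p = 0.0670). BAX was called higher by DESeq2 (0.65, adjusted p = 0.0199), limma-voom (0.72, 0.0463) and without growing replicate 3 (0.89, 0.0290). It was also called, at smaller sizes, after the GC correction (0.38, 0.0183), with the library GC term (0.43, 1.08e-05) and without the 3 low-GC libraries (0.39, 0.0266). BAK1, the effector that sits in the outer membrane, gave 0.43 ± 0.20 (edgeR adjusted p = 0.0796) and was called by DESeq2 (0.0471), without growing replicate 3 (0.0471) and with the library GC term (0.26, adjusted p = 0.000364). After the GC correction it was at 0.12 (adjusted p = 0.210), and without the 3 low-GC libraries at 0.28 (0.140), not called in either. PMAIP1, which encodes NOXA, a protein that binds MCL1 above all, gave -0.09 ± 0.09 (edgeR adjusted p = 0.415). BCL2L11, which encodes BIM, a strong activator that binds all pro-survival members, gave 0.14 ± 0.20 (edgeR adjusted p = 0.567). For PMAIP1 the correction for GC content turned the value to 0.12 (adjusted p = 0.0176), so its direction depends on that choice.

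Levels of different genes were compared per kilobase of exon, as CPM per kb. In growing cells the order was MCL1 (83.4 ± 7.81, SD, n = 3), PMAIP1 (53.3 ± 7.23), BCL2L1 (17.9 ± 2.75), BAX (17.7 ± 6.32), BCL2L2 (13.9 ± 0.0945) and BAK1 (8.39 ± 1.68), with BCL2 at 0.846 ± 0.0525. BBC3, BCL2L11 and BCL2A1 were below BCL2, at 0.322, 0.320 and 0.0121 CPM per kb. In that order the libraries of BAX overlapped those of BCL2L1 and of BCL2L2, and those of BBC3 overlapped those of BCL2L11. In the senescent control MCL1 stood at 158.8 ± 2.99 CPM per kb and BCL2L1 at 40.8 ± 1.52. BCL2A1 entered at 14.4 ± 2.33 CPM per kb, and BCL2, at 0.102 ± 0.0335, was the lowest of the 10 genes in all 4 senescent groups. With the longest coding transcript as the length, the BAX mean stood above that of BCL2L1 in growing and in senescent control cells. The libraries of the 2 genes overlapped in both groups, at means of 52.7 and 51.8 CPM per kb in the senescent control.

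As a share of the summed CPM per kb of the 5 pro-survival genes, MCL1 made up 71.8% ± 3.56 (SD, n = 3) in growing and 67.6% ± 0.253 in senescent control cells. BCL2L1 made up 15.5% ± 2.97 and 17.4% ± 0.927. The share of BCL2 went from 0.729% ± 0.0396 to 0.0435% ± 0.0138, and that of BCL2A1 from 0.00998% to 6.11% ± 0.869. MCL1 thus held the main part of pro-survival RNA in each group, and BCL2 held the smallest share in all 4 senescent groups. The pro-survival sum divided by the sum of the 5 pro-apoptotic genes was 1.45 ± 0.0797 in growing and 2.61 ± 0.158 in senescent control cells, with no overlap of libraries. This ratio was 2.28 ± 0.348 with shTXNRD1, 3.03 ± 0.125 with DMSO and 2.63 ± 0.0388 with Tri-1. With the longest coding transcript as the length it was 1.28 ± 0.121 in growing and 2.18 ± 0.140 in senescent control cells. The ratio covers the listed genes only, and other pro-apoptotic genes of the family, BMF and BID among them, are not in it. A permutation test of 3 libraries against 3 cannot go below p = 0.1, so the ratios are given without a test. The ratio of RNA levels says nothing of the balance of proteins.

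**Figure D2:**
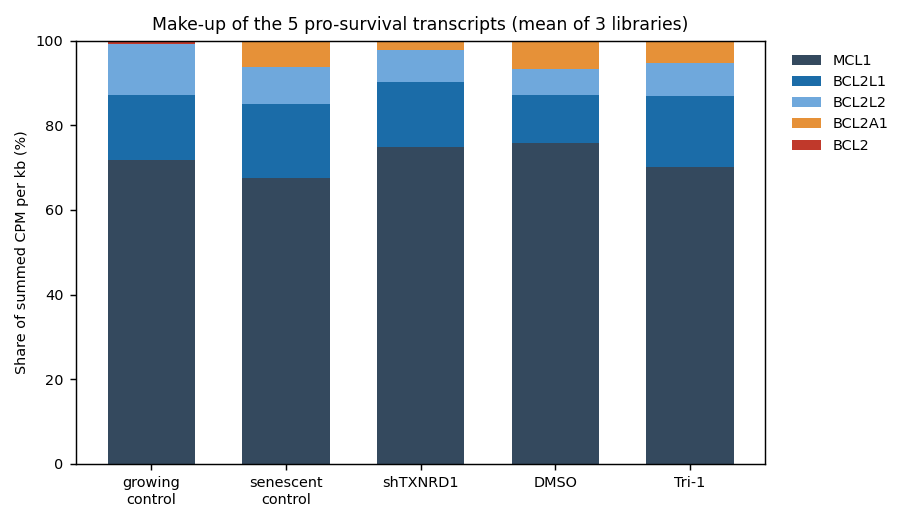
Share of each pro-survival gene in the summed CPM per kb of the 5 (vertical axis, percent, mean of 3 libraries) by group. MCL1 makes up 67.6% to 75.9% in all groups, the BCL2A1 band is 6.11% in the senescent control and 2.10% with shTXNRD1, and BCL2 is visible only in growing cells (0.729%).

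The second comparison asked how the family's RNA differs in senescent cells with the hairpin against TXNRD1. BCL2L11 rose 3.98-fold, the largest change among the 10, and PMAIP1 (1.43-fold), BAK1 (1.59-fold) and MCL1 (1.26-fold) rose as well, while BCL2A1 fell 2.56-fold. BCL2, BCL2L1, BCL2L2, BAX and BBC3 did not pass the test. Thus 4 of the 10 genes were called higher and 1 lower. Of all tested genes 50.7% were called, 25.8% higher and 24.8% lower, so 5 of 10 is at the background. Libraries did not overlap for 5 of the 10, against 55.4% of all genes. The median log2 fold change was 0.09, against -0.01 over all genes. The senescent control libraries are also those of the first comparison, so the values of the 2 comparisons are not independent.

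BCL2L11 stood at 2.19, 1.83 and 3.05 CPM in the senescent control and at 8.30, 10.3 and 9.51 CPM with shTXNRD1. Each hairpin library was above the highest library of each other group, DMSO included (3.47, 2.90 and 3.22 CPM). The log2 fold change was 1.99 ± 0.19 (SE, n = 3 against 3, edgeR adjusted p = 8.47e-07), and it lay between 1.84 and 2.21 in the 17 alternatives run for it. In the annotation 10.9% of the exon bases of BCL2L11 are shared with MIR4435-2HG, a long non-coding RNA on the opposite strand. Without strand in the counting, reads from the shared part cannot be told apart. MIR4435-2HG itself stood at 64.8 ± 3.92 CPM in the senescent control and 59.7 ± 6.12 CPM with shTXNRD1 (-0.12 ± 0.07, edgeR adjusted p = 0.192).

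PMAIP1 stood at 117, 108 and 111 CPM in the senescent control and at 145, 163 and 173 CPM with the hairpin (0.52 ± 0.09, edgeR adjusted p = 0.000336). MCL1, the main partner of its product, stood at 765, 867 and 987 CPM with the hairpin, all above the control libraries (0.33 ± 0.09, edgeR adjusted p = 0.00520). Both genes are low in GC (43.6% and 45.7% of transcript bases), and in the hairpin group both were highest in the library of lowest GC. With the library GC content as a term in the model, the PMAIP1 value was 0.34 (adjusted p = 8.09e-09) and the MCL1 value 0.15 (adjusted p = 1.95e-06). Both thus remained called, at sizes smaller by more than 1.5 times. BCL2A1 stood at 5.10, 6.17 and 7.04 CPM with the hairpin, below all 3 control libraries (-1.36 ± 0.15, edgeR adjusted p = 3.28e-06), and at -1.63 with the library GC term. The leukocyte marker CD68 stood at 27.7 ± 9.66 CPM with the hairpin. The summed leukocyte markers were at 19.1 to 38.8 CPM there against 72.2 to 80.6 CPM in the control, with CD3E at 0, and the part of CD68 in the result was not tested.

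The effectors spread widely among the hairpin libraries. BAK1 stood at 51.9, 37.3 and 29.8 CPM with shTXNRD1 and at 26.5, 27.2 and 21.1 CPM in the senescent control (0.67 ± 0.19, edgeR adjusted p = 0.0111). Without shTXNRD1 replicate 1, its highest library, the value was 0.42 and not called (adjusted p = 0.0564). It was also not called with the compared groups alone (adjusted p = 0.0518), and it was 1.05 with the library GC term (adjusted p = 8.76e-16), over 1.5 times the value without that term. BAX stood at 90.0, 67.9 and 40.2 CPM with the hairpin, on both sides of the control (-0.12 ± 0.28, edgeR adjusted p = 0.757). With the library GC term BAX turned to 0.41 and was called (adjusted p = 6.20e-05). BCL2L1 (-0.03 ± 0.12, edgeR adjusted p = 0.832) turned in the same way to 0.21 (adjusted p = 1.74e-05), and BBC3 (0.21 ± 0.28, edgeR adjusted p = 0.550) was called at 0.70 (adjusted p = 0.00268). After the GC correction BAX was at 0.17 (adjusted p = 0.259), BCL2L1 at 0.17 (0.00257) and BBC3 at 0.76 (0.000552). Without the 3 low-GC libraries none of the 3 was called (adjusted p of 0.386, 0.194 and 0.108). For these 3 genes the call, and for BAX and BCL2L1 also the direction, depended on the treatment of GC content.

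The link of these genes to library GC was close. Over the 15 libraries, with group means removed, the log2 level correlated with library GC at Pearson r = 0.976 for BAX, 0.971 for BCL2L1, 0.971 for BAK1 and 0.907 for BBC3. It correlated at -0.971 for MCL1, -0.922 for PMAIP1 and -0.909 for BCL2A1. BCL2L2 (-0.471), BCL2 (-0.429) and BCL2L11 (-0.320) followed it less closely. These values are descriptions over libraries that share their preparation. Library GC was itself computed from the counts of the tested genes, so it is not a separate measure of the libraries. A term for it may also take up differences in expression between groups. The 4 positive genes have transcripts of 56.2% to 64.5% GC, and the 3 with the strongest negative values have 40.3% to 45.7%. BCL2L2 has 56.2% GC without a positive value, so transcript GC does not order all 10.

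**Figure D3:**
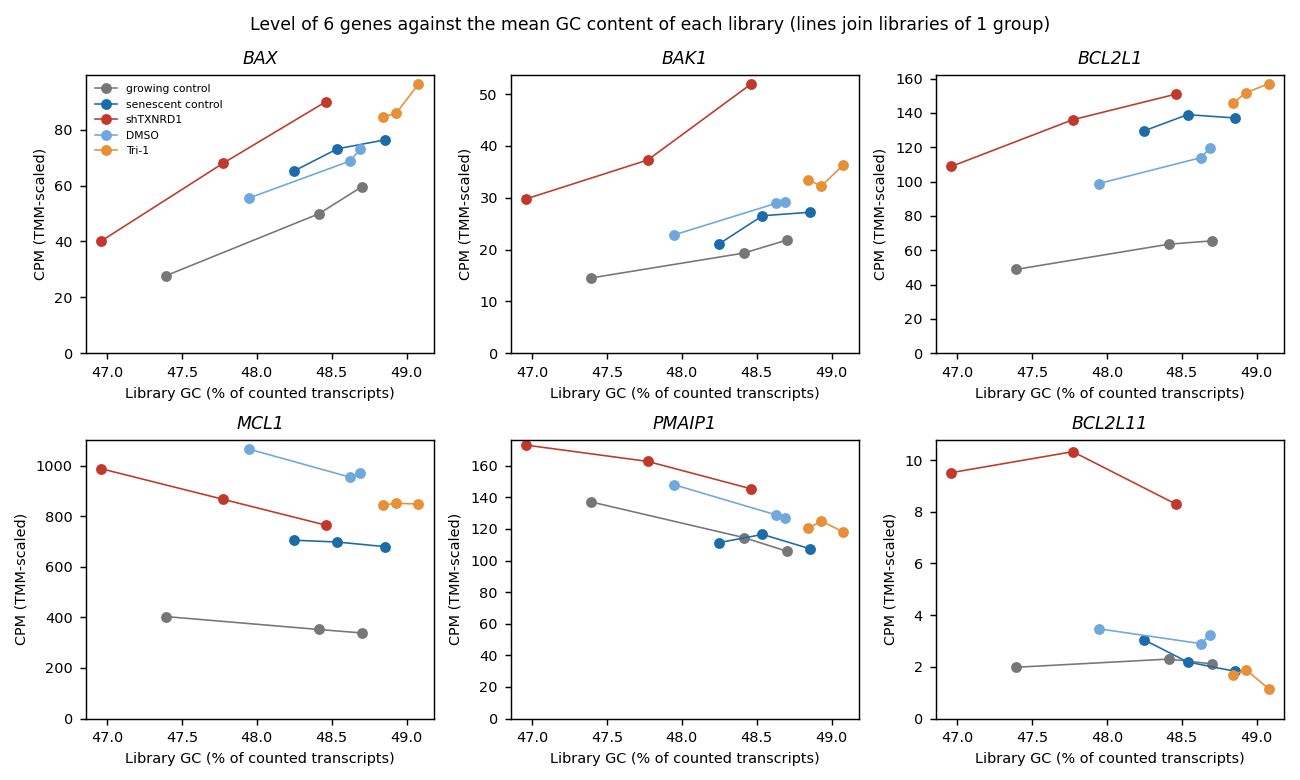
TMM-scaled CPM (vertical axes, linear, from 0) against the mean GC content of the counted transcripts of each library (horizontal axes, percent) for 6 genes. Points are single libraries, and lines join the 3 libraries of a group. BAX in the shTXNRD1 group goes from 40.2 CPM in the library of lowest GC to 90.0 CPM in that of highest GC, MCL1 goes from 987 to 765 CPM, and BCL2L11 stays between 8.30 and 10.3 CPM.

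The third comparison asked the same of Tri-1 against its solvent. BCL2L11 fell 2.03-fold and BCL2A1 1.39-fold, while BCL2L1 rose 1.37-fold and BCL2L2 1.17-fold. The other 6 genes did not pass the test. In this comparison 19.9% of all genes were called, 7.64% higher and 12.2% lower, and of the 10 genes 2 were called each way. After the GC correction the split over all genes was even, with 2826 higher and 2673 lower. The libraries did not overlap for 9 of the 10 genes, against 48.7% of all genes, with BCL2 the exception. The Tri-1 libraries did not overlap the DMSO libraries in GC content either, and its part in that count was not tested. The median log2 fold change was 0.04, against 0.01 over all genes.

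BCL2L11 stood at 3.47, 2.90 and 3.22 CPM with DMSO and at 1.88, 1.16 and 1.69 CPM with Tri-1. The groups did not overlap (-1.02 ± 0.20, SE, n = 3 against 3, edgeR adjusted p = 0.00285), and all 17 alternatives kept the call, with values from -1.16 to -0.84. The opposite-strand MIR4435-2HG moved the other way, from 58.6 ± 1.40 to 73.6 ± 0.665 CPM (0.33 ± 0.07, edgeR adjusted p = 0.00545). Against the senescent control (1.83 to 3.05 CPM) the Tri-1 libraries were partly overlapping, and the DMSO mean was above the control mean (0.44 ± 0.19, edgeR adjusted p = 0.147).

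BCL2L1 stood at 98.8, 113.9 and 119.4 CPM with DMSO and at 151.9, 157.0 and 146.0 CPM with Tri-1 (0.45 ± 0.12, edgeR adjusted p = 0.0165). The call was lost without DMSO replicate 1 (0.38, adjusted p = 0.0792) or Tri-1 replicate 2 (0.43, adjusted p = 0.0661). With the library GC term it was at 0.29 and called (adjusted p = 3.22e-08). BCL2L2 stood at 81.7, 75.2 and 79.4 CPM with DMSO and at 89.3, 93.2 and 94.9 CPM with Tri-1 (0.23 ± 0.06, edgeR adjusted p = 0.00962). After the GC correction BCL2L2 was at 0.13 and not called (adjusted p = 0.438), and the call was also lost with no filter on low counts (0.0670) and without DMSO replicate 2 (0.0516). The call was kept with the library GC term (0.26, adjusted p = 3.61e-06) and without the 3 low-GC libraries (0.26, 0.00221). BCL2A1 stood at 22.9, 21.4 and 20.2 CPM with DMSO and at 15.3, 15.8 and 15.3 CPM with Tri-1 (-0.47 ± 0.14, edgeR adjusted p = 0.0269). Its groups were well apart, but its call was lost on leaving out DMSO replicate 1 or 2 or any Tri-1 library (adjusted p from 0.0679 to 0.0947). It was -0.30 with the library GC term, where it was called (adjusted p = 0.00698). The leukocyte marker sum went from 56.5 to 73.9 CPM with DMSO to 91.5 to 93.3 CPM with Tri-1, opposite to BCL2A1.

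MCL1 stood at 1065, 954 and 969 CPM with DMSO and at 851, 848 and 844 CPM with Tri-1. All Tri-1 libraries were below, but the test was not passed (-0.23 ± 0.09, edgeR adjusted p = 0.0734). MCL1 was called lower in 6 of the alternatives, among them the library GC term (-0.12, adjusted p = 3.55e-05). BAX stood at 55.5, 68.8 and 73.1 CPM with DMSO and at 85.9, 96.3 and 84.5 CPM with Tri-1 (0.43 ± 0.28, edgeR adjusted p = 0.316). BAK1 gave 0.34 ± 0.19 (edgeR adjusted p = 0.256). With the compared groups alone both were called, BAX at 0.42 (adjusted p = 0.0245) and BAK1 at 0.32 (0.0381). BAX was at 0.31 after the GC correction (0.0693) and BAK1 at 0.21 (0.0479), and with the library GC term they were at 0.06 (0.445) and 0.08 (0.283). Without the 3 low-GC libraries they were at 0.32 (0.0916) and 0.23 (0.285). BBC3 (0.32 ± 0.28, edgeR adjusted p = 0.465) and PMAIP1 (-0.15 ± 0.09, edgeR adjusted p = 0.283) did not pass the test.

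**Figure D4:**
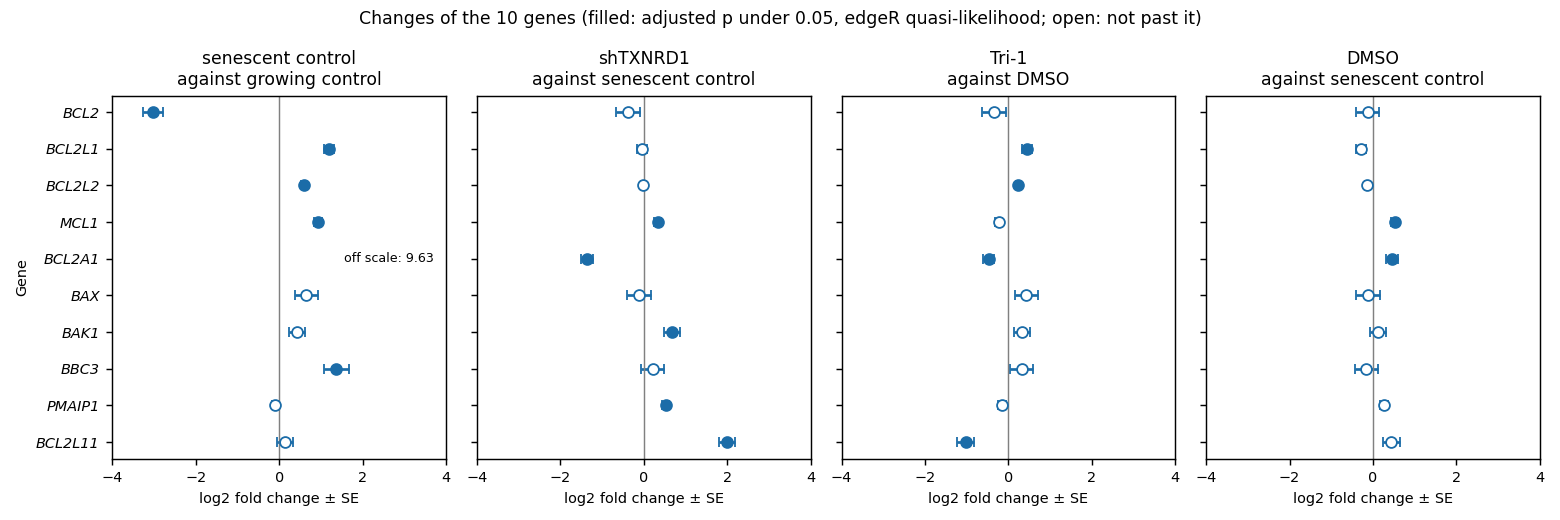
Log2 fold change ± SE (horizontal axes) of the 10 genes in 4 comparisons, from the edgeR quasi-likelihood fit. Filled points are past an adjusted p of 0.05 and open points are not. BCL2L11 is at 1.99 with shTXNRD1 and at -1.02 with Tri-1, BCL2 is at -3.02 in senescence, and BCL2A1 in senescence (9.63) is off the axis.

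The design has 2 ways of inhibiting TXNRD1, and the difference between their effects was tested as an interaction, the hairpin effect minus the Tri-1 effect. It was past the threshold for 6 of the 10 genes, 3 in each direction, with 41.7% of all genes called, 22.1% higher and 19.5% lower. BCL2L11 moved in opposite directions under the hairpin and Tri-1, and the difference was 3.02 ± 0.28 on the log2 scale (SE, edgeR adjusted p = 1.53e-06). For PMAIP1 the difference was 0.67 ± 0.13 (edgeR adjusted p = 0.00107), for MCL1 0.56 ± 0.12 (0.00211) and for BCL2A1 -0.88 ± 0.20 (0.00300). BCL2A1 was called lower under both inhibitions, each against its own control, and its fall was larger with the hairpin. With Tri-1 BCL2A1 stood at 15.5 ± 0.289 CPM (SD, n = 3) and with DMSO at 21.5 ± 1.31. The senescent control stood at 15.6 ± 2.54 CPM, so a fall with Tri-1 shows only against DMSO. BCL2L1 (-0.49 ± 0.17, adjusted p = 0.0335) and BCL2L2 (-0.25 ± 0.08, adjusted p = 0.0190) were called, but both calls were lost in several alternatives. The hairpin and Tri-1 arms have different controls and may differ in time and strength, and these cannot be told apart from the mode of inhibition. BAX, BAK1, BBC3 and BCL2 did not pass the test (edgeR adjusted p from 0.286 to 0.949). BAK1, at 0.33 ± 0.27, was called in all 3 GC settings: at 0.71 after the GC correction (adjusted p = 3.83e-05), 0.97 with the library GC term (1.48e-10) and 0.60 without the 3 low-GC libraries (0.0338). BBC3 was called at 0.66 after the GC correction (0.0230) and at 0.72 with the library GC term (0.0429), and BAX turned from -0.55 to 0.35 with that term and was called (0.00921). With the library GC term the sizes were 0.37 for PMAIP1, 0.27 for MCL1 and -1.33 for BCL2A1, all still called.

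Senescent cells with DMSO were compared with the senescent control, which shows how far the 2 control groups lie apart. MCL1 was higher with DMSO (0.52 ± 0.09, SE, n = 3 against 3, edgeR adjusted p = 0.000908), beside 0.33 ± 0.09 with the hairpin against the same control libraries. BCL2A1 was higher too, by 0.46 ± 0.14 (edgeR adjusted p = 0.0367), and the other 8 genes did not pass the test. Of these, BCL2L1 (-0.29 ± 0.12) and PMAIP1 (0.27 ± 0.09) were called in all 3 GC settings, from -0.26 to -0.21 and from 0.20 to 0.25, and with the compared groups alone. The background was 16.2% of genes called, 8.36% higher and 7.87% lower, and libraries did not overlap for 5 of the 10 genes against 39.7% of all genes. The MCL1 call was kept in all 17 alternatives, from 0.47 to 0.55. The BCL2A1 call was lost on leaving out any 1 library of these groups except senescent control replicate 3 (adjusted p from 0.0644 to 0.145). The DMSO libraries serve as control for Tri-1, so a high DMSO value enters this comparison and that of Tri-1 with opposite signs.

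Around the 10 genes, 4 further lists were counted: 13 other family genes, 14 genes of caspases, the apoptosome and outer membrane channels, 10 inhibitors of apoptosis and their antagonists, and 15 regulators of the transcription or turnover of the 10. Of the other family genes 10 were tested. In senescence 4 were called higher and 1 lower, near the share of 56.9% over all genes, led by BMF, a BH3-only gene linked to loss of attachment, which went from 2.20 to 39.0 CPM (log2 fold change 4.15 ± 0.15, edgeR adjusted p = 1.25e-11). BNIP3 (1.49 ± 0.07) and BNIP3L (1.03 ± 0.10), receptors for the removal of mitochondria, rose as well. With the hairpin 2 were called higher and 2 lower, beside 50.7% of all genes: BIK, a BH3-only gene of the endoplasmic reticulum, rose from 6 to 98 counts per group. The ratio of its counts was 16.8, with an exact 95% interval of 7.45 to 46.9 for counting error. BID, which links death receptors to BAX and BAK1, fell by 1.03 ± 0.07, and BMF fell by 0.71 ± 0.12. With Tri-1 edgeR called 0 of these 10, with 0 at an unadjusted p under 0.05, beside 19.9% of all genes called. DESeq2 and limma-voom also called 0. The library GC term called 3, beside 6639 of 15994 genes.

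Of the 14 caspase and channel genes, all tested, 4 were called higher and 4 lower in senescence, 7 and 2 with the hairpin, and 2 and 0 with Tri-1, beside 56.9%, 50.7% and 19.9% of all genes called. APAF1, the scaffold of the apoptosome, fell in senescence by 0.46 ± 0.08 on the log2 scale, the initiator CASP2 by 0.52 ± 0.06 and the executioner CASP6 by 0.91 ± 0.10. With the hairpin the outer membrane channel VDAC1 fell by 0.98 ± 0.08, and with Tri-1 CASP2 rose by 0.35 ± 0.06 on the log2 scale. CYCS, which encodes cytochrome c, stood at 0.29 ± 0.10 with Tri-1 (edgeR adjusted p = 0.0549). It was called after the GC correction (0.39, 3.08e-08), with the library GC term (0.42, 1.56e-12) and without the 3 low-GC libraries (0.35, 0.000476). The compared groups alone (0.00182), no filter (0.0465) and a mean CPM of at least 1 (0.0378) called it too. Of the 14 genes 7 were called with Tri-1 after the GC correction and 7 with the library GC term, beside 5499 and 6639 of 15994 genes.

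Of the inhibitors of apoptosis 9 were tested, with 4 higher and 2 lower in senescence, where 56.9% of all genes were called. BIRC3, an NF-kB target like BCL2A1, went from 7.97 ± 1.34 to 52.5 ± 3.08 CPM (2.72 ± 0.10), CFLAR, the inhibitor of caspase-8, rose by 0.91 ± 0.07, and BIRC5 (survivin), a gene of dividing cells, fell by 2.59 ± 0.11. With the hairpin 1 was called higher and 3 lower, beside 50.7% of all genes. BIRC3 fell to 8.92 ± 0.139 CPM (-2.56 ± 0.10, edgeR adjusted p = 9.32e-11), BIRC5 by 2.35 ± 0.13 and CFLAR by 0.65 ± 0.07. With Tri-1 only NAIP was called, beside 19.9% of all genes, at -0.74 ± 0.15. BIRC3 was at -0.20 ± 0.09 (edgeR adjusted p = 0.128) and BIRC5 at -0.27 ± 0.10 (edgeR adjusted p = 0.0890). BIRC5 was called after the GC correction (0.0398), with the library GC term (0.00687) and without the 3 low-GC libraries (0.0430). The compared groups alone called BIRC5 (0.0425) and BIRC3 (0.0114). Of the 9 genes 4 were called after the GC correction and 4 with the library GC term, beside 5499 and 6639 of 15994 genes.

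Of the 15 regulators 14 were tested, with 5 higher and 7 lower in senescence, 5 and 3 with the hairpin, and 5 and 1 with Tri-1, beside 56.9%, 50.7% and 19.9% of all genes called. FOXO3, a transcription factor known to act on BCL2L11, fell in senescence (-0.58 ± 0.05) and rose with the hairpin, from 82.1 ± 2.63 to 126 ± 3.11 CPM (0.62 ± 0.05, edgeR adjusted p = 2.23e-07). With Tri-1 it was at 0.00 ± 0.05 (edgeR adjusted p = 0.997). FOXO1, its relative, was near the detection limit, at 0.900 ± 0.271 CPM with DMSO and 0.217 ± 0.0553 CPM with Tri-1 (-2.02 ± 0.40, edgeR adjusted p = 0.00268). ATF4, a factor of the stress response, fell in senescence (-0.67 ± 0.06). NFKB1, a subunit of NF-kB, fell with the hairpin by 0.53 ± 0.05, and E2F1, a cell cycle factor, by 1.28 ± 0.22. With Tri-1 MYC rose by 0.75 ± 0.11, and NFKB1 by 0.20 ± 0.05 (edgeR adjusted p = 0.0194). The NFKB1 call was lost without DMSO replicate 2 or 3 or Tri-1 replicate 1 or 2 (adjusted p from 0.0524 to 0.0807).

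For each of the 10 genes the most alike gene over the 15 libraries was found by Pearson correlation of log2 CPM among 11903 candidates. BCL2A1 was most like QPCT (r = 0.999), MCL1 most like SLC17A5 (0.993), BCL2 most like CDCA3 (0.988) and BCL2L1 most like PLCXD1 (0.988). BAX was nearest to PLEKHM2 (0.986), BCL2L2 to SERPINB8 (0.981), BBC3 to WBP2 (0.978) and PMAIP1 to DIS3 (0.974). BAK1 was nearest to CDK5 (0.968) and BCL2L11 to BRWD3 (0.966). These are descriptions over 5 groups and their shared library GC.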

How the data were processed

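The 15 IMR90 libraries were built from total RNA (KAPA RNA HyperPrep) and read as 75 bp paired ends, per the labels' protocols. The values deposited by the authors are counts, whole numbers per Ensembl gene with no scaling. The submitters' processing notes name hg19, mm10, RSEM 1.2.3 and DESeq2 (no version), with no roles. The aligner, annotation and strand setting were not given in the sources used here.

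In edgeR 4.0.16 (R 4.3.3) the counts, scaled by TMM, went into 1 robust quasi-likelihood model of 5 groups, with F tests, 10 residual degrees of freedom and the filterByExpr filter. P-values were two-sided and Benjamini-Hochberg adjusted over all 15994 tested genes in each of 5 comparisons. The error given with a log2 fold change is its SE. Symbols were matched by identifier (52301 of 57736 genes). Gene lengths, exon overlaps and GC content came from GENCODE (GRCh38), a build other than hg19, and were available for 96.5% of tested genes. The GC correction is an offset per library over 20 bins of transcript GC. Alternatives used DESeq2 1.42.0, limma-voom 3.58.1, other scalings and filters, a replicate block, the compared groups alone, each library left out, and the GC correction. The library GC term, leaving out the 3 low-GC libraries, and the longest coding length were added after seeing the data. The fit was tested on simulated counts with a fixed spread and no GC shifts between libraries. That run cannot show how the fit handles such shifts. Intervals cover counting error only.

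The 10 genes and all lists were chosen with earlier results of these data known. By rule, all 10 genes are described, up to 3 genes of smallest p per further list are named in each of the senescence, hairpin and Tri-1 comparisons, and 1 most alike gene is named for each of the 10 (mean log2 CPM of at least 1). Some genes named by this rule are not reported here.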

Additional observations from a re-analysis of the deposited data

Results flagged for a closer look

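The hairpin effect minus the Tri-1 effect (log2, from the interaction term of the edgeR quasi-likelihood fit) passed an adjusted p of 0.05 for 6 of the 10 genes, beside 41.7% of all genes tested. BCL2L11 differed by 3.02 ± 0.28 (SE), with 1.99 under the hairpin and -1.02 under Tri-1. PMAIP1 differed by 0.67 ± 0.13, with 0.52 and -0.15. MCL1 differed by 0.56 ± 0.12, with 0.33 and -0.23. BCL2A1 differed by -0.88 ± 0.20, with -1.36 and -0.47. The calls of these 4 genes were kept in all 23 alternatives run, while with the library GC term the sizes were 0.37 for PMAIP1, 0.27 for MCL1 and -1.33 for BCL2A1. BCL2L1 differed by -0.49 ± 0.17, with -0.03 and 0.45, and kept its call in 13 of 23 alternatives. BCL2L2 differed by -0.25 ± 0.08, with -0.02 and 0.23, and kept its call in 18 of 23.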

How the results depend on the processing

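The numbers of tested genes called were 9108 in senescence, 8105 with the hairpin, 3176 with Tri-1, 6662 for the difference and 2595 for DMSO against control. Of the 10 genes 6, 5, 4, 6 and 2 were called. With Tri-1 the count over all genes was 5499 after the GC correction (2826 higher, 2673 lower, against 1222 and 1954 without it), 5381 with the compared groups alone and 6639 with the library GC term, and 7 of the 10 genes were called with the compared groups alone. For DMSO against control it was 5138 after the GC correction, 6624 with the library GC term and 3981 without the 3 low-GC libraries. Of the 10 genes 5, 7 and 5 were called there, and 4 with the compared groups alone, beside 3733 of 14970 genes. With the hairpin 8 of the 10 were called with the library GC term, beside 9556 of 15994 genes. The cause of these shifts was not tested. Leaving out single libraries gave 8192 to 9126 genes in senescence (6 to 8 of the 10), 7146 to 8961 with the hairpin (4 to 5), 2153 to 2395 with Tri-1 (2 to 4), 5703 to 7884 for the difference (5 to 6) and 1817 to 1899 for DMSO (1 to 3). Only 2 of the 10 were called with Tri-1 without DMSO replicate 1, DMSO replicate 2 or Tri-1 replicate 2.

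Directions turned, with a call in one of the fits, in 9 cases. After the GC correction PMAIP1 in senescence was 0.12, BCL2L1 with the hairpin 0.17, and in the difference BCL2L2 was 0.065 and BBC3 0.66. With the library GC term BCL2L1 with the hairpin was 0.21 and BAX 0.41, and in the difference BAX was 0.35, BBC3 0.72 and CYCS -0.13. The scalings moved the median of all genes by less than 0.1 on the log2 scale.

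Libraries with the same replicate number did not deviate together in every pair of groups. The correlation of their deviations ran from -0.279 (growing with senescent control, replicate 3) to 0.321 (senescent control with shTXNRD1, replicate 3). Whether the numbers pair the libraries is not given by the labels, and these values cannot settle it. With the replicate block 8754 genes were called in senescence (6 of the 10), 7705 with the hairpin (5), 2743 with Tri-1 (4), 6156 for the difference (5, without BCL2L1) and 2176 for DMSO (1, without BCL2A1). Counts of BCL2, BBC3 and BCL2L11, all near or under 10 CPM, limit the precision of their changes.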

Other observations

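Of the 4 endothelial markers tested, 3 were called lower and 1, KDR, higher with the hairpin (edgeR quasi-likelihood test), beside 50.7% of all genes. The summed endothelial level was 105 to 133 CPM with the hairpin against 159 to 172 CPM in the senescent control. Of the 3 epithelial markers tested EPCAM alone was called, and was higher. Both genes were singled out after their values were seen. EPCAM stood at 3.63 ± 0.506 CPM with shTXNRD1 and 1.08 ± 0.337 CPM in the control, and KDR at 8.24 ± 0.727 and 0.471 ± 0.111 CPM. The endothelial marker CDH5 was at 0 in the growing libraries, and the epithelial markers KRT5 and SFTPC were at 0 in all 15.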
